A study of Mus musculus with 4 samples.

Results

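Elastic fibres and the fibrillin microfibrils around them were followed through 10 genes in mesenchymal cells sorted from mouse hearts. The genes were taken by symbol: elastin (Eln), the fibrillins Fbn1 and Fbn2, the fibulins Fbln1, Fbln2 and Fbln5, Emilin1, and the microfibril-associated proteins Mfap2, Mfap4 and Mfap5. All 10 had a row among the 28001 features of each library, and all 10 had UMIs in each of the 4 libraries. The study asked how mixed the cardiac mesenchymal progenitors are, by droplet sequencing of sorted cells from 3 reporter lines. The ligated group was tdTomato+ cells of Hic1 CreERT2 tdTomato mice on C57BL/6, collected 7 days after ligation of the left anterior descending (LAD) coronary artery, with 3 hearts pooled into 1 library. Its counterpart was the same sorted cells of undamaged hearts, again 3 hearts in 1 library. A further library held nuclear-GFP+ cells of B6.129S4-Pdgfratm11(EGFP)Sor/J mice, named PDGFRa H2BGFP here, from 4 hearts marked by hashtag antibodies to MHC I, of which 2 were undamaged and 2 had been ligated 7 days earlier. The last held citrine+ cells of Hic1 Citrine mice from 3 hashed undamaged hearts. The tdTomato label rests on Hic1 CreERT2, so cells that never expressed Hic1 are outside that pair of libraries, and the PDGFRa library holds cells with an active Pdgfra locus. The labels do not say which PDGFRa hashtag marks which condition, so its hearts are given one by one and no condition is attached to them.

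Elastic fibres give arteries, valves and the heart wall their recoil. Tropoelastin, the product of Eln, is laid on a scaffold of fibrillin microfibrils and is cross-linked by lysyl oxidases. Fibulins and EMILIN1 sit at the border between elastin and microfibrils, and the MAGP proteins made from Mfap2 and Mfap5 bind fibrillin. Mfap4 encodes a fibrinogen-related glycoprotein that binds elastic fibres and collagen. Microfibrils also hold latent TGF-beta and bone morphogenetic proteins in the matrix, and fibroblasts are the usual main source of these proteins in the heart wall.

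On mm10, by the GENCODE annotation, Eln lies at chr5:134702593-134747323 on the minus strand, Fbn1 at chr2:125300594-125507993 on the minus strand and Emilin1 at chr5:30913402-30921277 on the plus strand. Fbln1 lies at chr15:85205949-85286535 and Fbln2 at chr6:91212455-91272540, both on the plus strand, and Fbln5 at chr12:101746565-101819055 on the minus strand. The microfibril-associated genes lie at chr4:141010418-141015984 (Mfap2), chr11:61485431-61488900 (Mfap4) and chr6:122505845-122529290 (Mfap5), all on the plus strand. The values below are 3' tag counts over whole genes, so no exon or isoform of a gene was read apart, and levels are not compared between genes.

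Promoter windows, from 250 bases before to 50 bases after a transcription start, were taken from RefSeq (GRCm38.p6) for 6 members, which had 9 windows. Eln, Fbn2, Mfap4 and Mfap5 are named only. Of these windows 4 are shown, since Fbn1 and Fbln2 were high in the same fibroblast clusters, Mfap2 in other clusters, and Emilin1 varied least between cell classes. They lie at chr2:125506389-125506688 (Fbn1, minus strand), chr4:141010431-141010730 (Mfap2, plus strand), chr6:91212514-91212813 (Fbln2, plus strand) and chr5:30913536-30913835 (Emilin1, plus strand). Capitals mark GGGCGG, the core of a GC box, or CAGACA, a SMAD-binding element, on either strand.
Fbn1: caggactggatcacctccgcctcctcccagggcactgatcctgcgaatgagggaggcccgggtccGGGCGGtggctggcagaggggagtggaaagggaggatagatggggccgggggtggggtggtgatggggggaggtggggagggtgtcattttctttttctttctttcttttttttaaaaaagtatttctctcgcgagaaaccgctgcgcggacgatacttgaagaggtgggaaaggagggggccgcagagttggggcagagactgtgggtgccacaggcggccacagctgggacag
Mfap2: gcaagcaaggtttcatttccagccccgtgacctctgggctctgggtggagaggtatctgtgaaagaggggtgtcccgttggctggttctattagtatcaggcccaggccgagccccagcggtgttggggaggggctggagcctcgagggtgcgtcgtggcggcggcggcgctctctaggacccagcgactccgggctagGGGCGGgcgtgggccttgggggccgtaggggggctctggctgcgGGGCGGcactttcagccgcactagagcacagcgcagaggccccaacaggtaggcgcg
Fbln2: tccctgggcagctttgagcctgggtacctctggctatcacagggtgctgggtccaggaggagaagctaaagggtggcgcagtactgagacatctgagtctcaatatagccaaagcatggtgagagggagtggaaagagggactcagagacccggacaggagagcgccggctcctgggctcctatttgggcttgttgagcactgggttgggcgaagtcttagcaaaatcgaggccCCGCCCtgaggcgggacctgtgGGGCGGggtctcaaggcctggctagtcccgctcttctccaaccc
Emilin1: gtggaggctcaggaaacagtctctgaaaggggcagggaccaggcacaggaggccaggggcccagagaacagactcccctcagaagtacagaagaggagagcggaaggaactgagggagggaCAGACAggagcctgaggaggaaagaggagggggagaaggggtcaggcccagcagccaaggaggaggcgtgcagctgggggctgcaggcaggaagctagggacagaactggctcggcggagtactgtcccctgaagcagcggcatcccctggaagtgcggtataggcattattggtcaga
GGGCGG was present in 5 of the 9 member windows, which belong to 5 of 6 members, against 35.7% of all 32851 RefSeq windows of that length. CAGACA was present in 5 of the 9 windows and 4 of 6 members, against 21% of all windows. The AP-1 motif TGANTCA was in 0 of the 9 windows, against 7.81% of all windows. No match overlapped a match of another motif. These are letter matches in a short window and describe the sequences only.

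Filters of 500 genes and 1000 UMIs as minimum, and a 10% ceiling on the mitochondrial share, left 4263 cells of the ligated tdTomato library, 2786 of the undamaged tdTomato library, 12567 of the PDGFRa library and 10838 of the citrine library. Median depth per kept cell was 3668, 3453, 7729 and 8038.5 UMIs in the same order. Between 0 and 36 barcodes were shared by any pair of libraries. Clusters were named from marker genes. The members and the other genes of elastic fibre biology were left out of the clustering, except Dcn, which is also a fibroblast marker. Fibroblast-like cells made up 73.4% of the ligated and 87.2% of the undamaged tdTomato library, all of the PDGFRa library and 98.03% of the citrine library. Pericyte-like cells made up 19.2% (95% exact binomial interval 18.04 to 20.43) of the ligated and 6.46% (5.58 to 7.44) of the undamaged tdTomato library, and smooth-muscle-like cells 7.37% and 5.85%. Levels are CPM, the UMIs of a gene summed over a group of cells and divided by all UMIs of those cells, on the usual CPM scale. With 1 library per condition there is no replicate and no test: ratios carry exact 95% Poisson intervals, which cover counting error only, and a gene is called higher or lower when its ratio, with 1 UMI added to each sum, is over 2 or under 0.5.

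Most members were lower in mural cells than in fibroblast-like cells, and Emilin1 was within 2-fold in both mural classes. In the ligated tdTomato library, 8 of 10 members were over 2-fold lower in pericyte-like than in fibroblast-like cells, where 11.1% of 11974 genes were, and 0 were higher, where 13.9% of genes were. In smooth-muscle-like cells 9 of 10 were over 2-fold lower (16.2% of 11796 genes) and 0 higher (14.6%). Emilin1, whose protein sits between elastin and microfibrils and restrains TGF-beta release, was that member. It had 183 CPM in pericyte-like cells and 149.7 CPM in smooth-muscle-like cells, against 190.5 CPM in fibroblast-like cells, a ratio of 0.964 (0.869 to 1.06) for pericyte-like and 0.791 (0.662 to 0.928) for smooth-muscle-like cells. Mfap2, coding for MAGP-1, had 143 CPM in pericyte-like cells, against 207 CPM in fibroblast-like cells (ratio 0.694, 0.618 to 0.774), and 24.3 CPM in smooth-muscle-like cells. The Mfap2 level thus split the mural classes, and smooth-muscle-like cells were 5.67-fold lower than pericyte-like cells (3.90 to 9.32). Between these mural classes 6 of 9 members were over 2-fold lower in smooth-muscle-like cells (11.5% of genes) and 0 higher (4.84%).

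Fbn1, the main fibrillin of adult tissue, had 205 CPM in pericyte-like and 81.9 CPM in smooth-muscle-like cells, against 423 CPM in fibroblast-like cells. Eln had 68.9 CPM in pericyte-like and 68.8 CPM in smooth-muscle-like cells, against 484 CPM in fibroblast-like cells, so that the mural classes did not differ beyond counting error (ratio of smooth-muscle-like to pericyte-like 1.01, 0.742 to 1.33). Among members in pericyte-like cells, Mfap4 and Mfap5 had the lowest ratios. Pericyte-like cells were 18.3-fold lower in Mfap4 (15.3 to 22.6), and in Mfap5, which codes for MAGP-2, they had 75.4 CPM, against 1365 CPM in fibroblast-like cells (ratio 0.0556, 0.0476 to 0.0638). The fibulins were lowest in smooth-muscle-like cells, where Fbln1 had 9 UMIs, Fbln2 had 5 and Fbln5 had 3. Fbn2, the fibrillin best known from development, had 5 UMIs in pericyte-like cells and 0 in smooth-muscle-like cells, at least 4.47-fold lower than the 13.6 CPM of fibroblast-like cells by a floor of 3 counts over the class. Across the members the median log2 ratio to fibroblast-like cells was -2.87 for pericyte-like cells, beside 0.24 over all genes. For smooth-muscle-like cells it was -4.34, beside 0.06 over all genes, or -3.97 with Fbn2 at its bound.

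Fibroblast markers also had UMIs in mural cells. The 9 fibroblast markers summed to 0.156 of their fibroblast-like level in pericyte-like cells and 0.0355 in smooth-muscle-like cells of the ligated library, and to 0.0760 and 0.0374 in the undamaged library. Fbn1 and Emilin1 were above that ratio in both mural classes of both libraries. Eln and Mfap2 were each above it in 3 of the 4. Fbn2, Fbln1, Fbln2, Fbln5, Mfap4 and Mfap5 were at or below it in all 4, by CPM without the added UMI. The part of fibroblast RNA in their mural levels was not tested. Thinning each cell to 2000 UMIs gave the same order: in the ligated library 9 of 10 members were found in a larger share of fibroblast-like than of pericyte-like cells, Emilin1 being the exception with 30.4% of pericyte-like against 28.6% of fibroblast-like cells. For Eln the thinned shares were 10.8% of 535 pericyte-like and 10.3% of 237 smooth-muscle-like cells, against 30.6% of 2994 fibroblast-like cells (13.9%, 15.3% and 45.3% before thinning, at median depths of 2390, 2703.5 and 4013.5 UMIs).

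**Figure D1:**
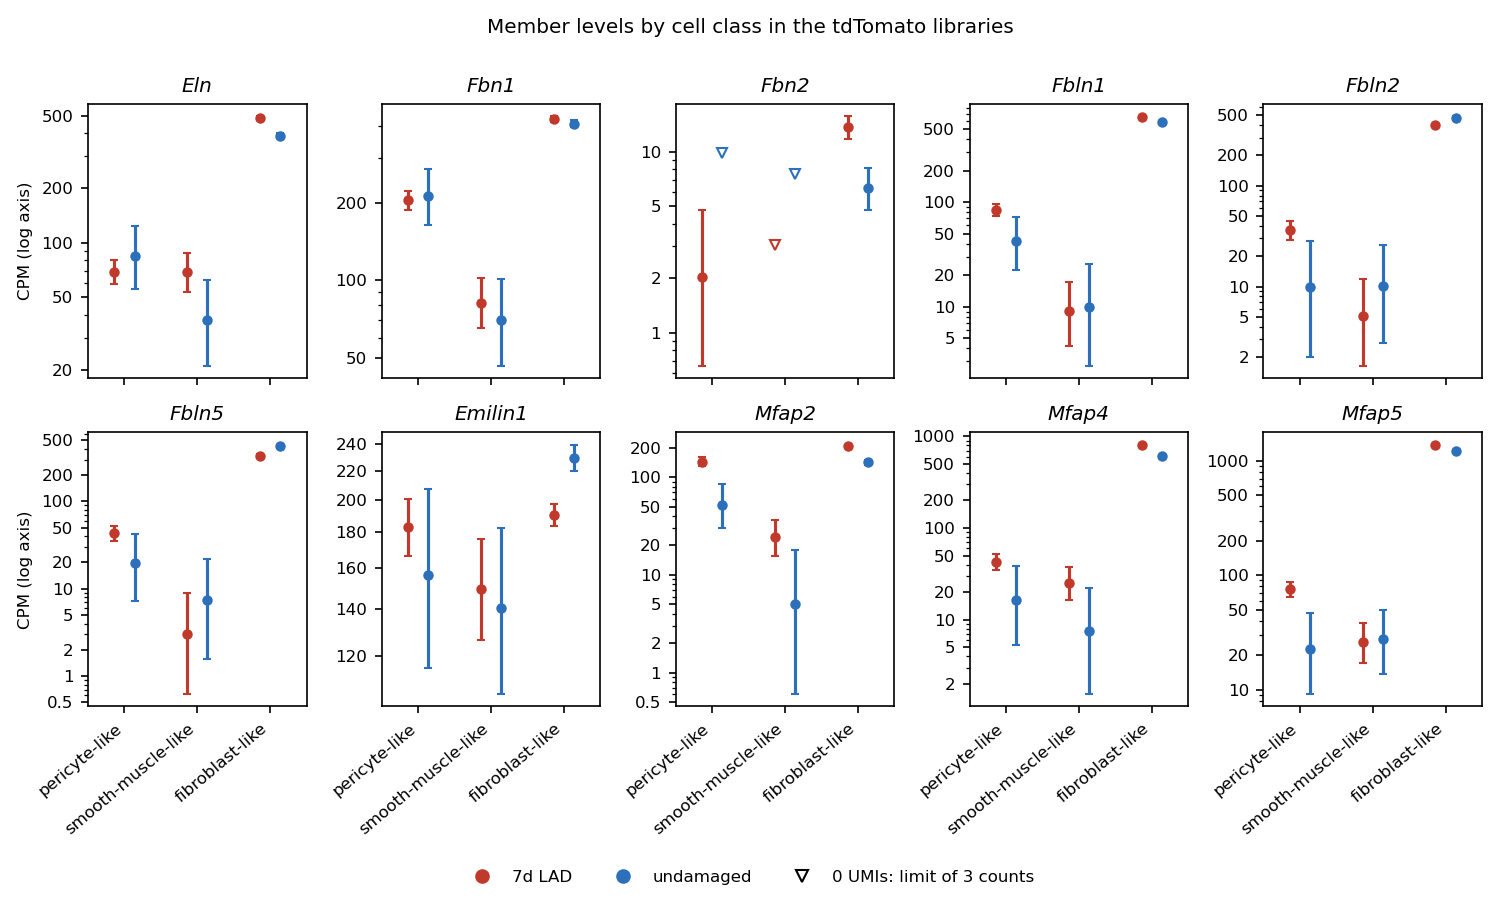
Level of each member (CPM, log axis with its own range in each panel) in pericyte-like, smooth-muscle-like and fibroblast-like cells of the ligated (red) and undamaged (blue) tdTomato libraries, with 95% Poisson intervals as bars and open triangles for the limit set by 3 counts where no UMI was seen. Emilin1 stays between 140.5 and 229.6 CPM in every class drawn, while Mfap4 and Mfap5 drop steeply outside fibroblast-like cells.

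Undamaged tdTomato hearts held both mural classes and the citrine library pericyte-like cells alone. In undamaged tdTomato hearts 7 of 10 members were over 2-fold lower in pericyte-like cells (9.9% of all genes) and 0 higher (24.6%), and Emilin1 had 157 CPM there and 140.5 CPM in smooth-muscle-like cells, against 229.6 CPM in fibroblast-like cells. In those smooth-muscle-like cells 9 of 10 members were over 2-fold lower with 1 UMI added (15.5% of all genes by the same rule) and 0 higher (16.9%), and 8 without Fbn2. Against pericyte-like cells 2 of 3 members with enough UMIs, Eln and Fbn1, were over 2-fold lower in smooth-muscle-like cells (16% of genes) and 0 higher (7.56%). Fbn2 had 0 UMIs in both mural classes of undamaged hearts, where the limit set by 3 counts lies above its fibroblast-like level, so no fold is given. In the citrine library 7 of 10 members were over 2-fold lower in pericyte-like cells (6.16% of all genes) and 0 higher (21.7%), with a median log2 ratio of -1.35. There Fbn1 had 404 CPM in pericyte-like cells, against 669.5 CPM in fibroblast-like cells, and Mfap4 had 57.6 CPM, against 319 CPM. Of the citrine pericyte-like cells with 1 hashtag 87.1% came from the heart with hashtag 2.

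At 7 days after ligation, fibroblast-like cells as a whole differed little from undamaged ones in these genes. Of the 10 members 1 was over 2-fold higher and 0 were lower, where 2.96% of 12324 genes were higher and 4.02% were lower. The median log2 ratio was 0.16 for the members and -0.06 for all genes. The gene past 2-fold was Fbn2, with 197 UMIs (13.6 CPM) after ligation, against 57 UMIs (6.27 CPM) in undamaged hearts, a 2.14-fold ratio (1.61 to 2.96). Its level was low in both libraries, and the interval of its ratio reaches below 2. The count came to 0 with a mean over cells in place of summed counts, and also when all kept cells were summed.

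Next came the microfibril-associated genes and elastin. Mfap2 had 207 CPM after ligation, against 142 CPM in undamaged hearts (1.46-fold, 1.36 to 1.56), and Mfap4 had 796 CPM, against 611 CPM (1.30-fold, 1.26 to 1.35). Eln had 484 CPM after ligation, against 389 CPM (1.24-fold, 1.20 to 1.30). Mfap5 was 1.12-fold and Fbln1 1.11-fold higher, and Fbn1 had 423 CPM after ligation, against 407 CPM in undamaged hearts, with an interval that spans no difference (1.04-fold, 0.998 to 1.08). On the other side stood Fbln2, Fbln5 and Emilin1, whose ratios were 0.844 (0.811 to 0.878), 0.777 (0.745 to 0.810) and 0.830 (0.784 to 0.879). Fbln5 codes for the fibulin that tethers tropoelastin to microfibrils and cells, and had 336 CPM after ligation, against 432 CPM in undamaged hearts.

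The totals were uneven between fibroblast states. Activated-like fibroblasts, a single cluster led by Cthrc1, Ddah1, Thbs4, Ptn and Postn, were 13.1% of the fibroblast-like cells of the ligated library and held 24.4% of their UMIs, yet 67.2% (66.4 to 68.1) of their Mfap4 UMIs and 66.9% (65.8 to 68.0) of their Eln UMIs. The corresponding shares were 61.9% for Fbn2, 53.5% for Mfap2, 49.1% for Mfap5 and 44.5% for Fbn1. No cluster of the undamaged tdTomato library was named activated-like at resolution 1. Its cluster 10 carried 66.7% of the activated markers but took the Wif1-like name on 71.4% of the Wif1 markers. At resolution 2 a like cluster of 153 cells was named activated-like. With the activated-like cluster of the ligated library left out and undamaged cluster 10 kept, 0 of 10 members were past 2-fold (1.86% of 12021 genes were higher and 5% lower). The members' median log2 ratio was then -0.40, beside -0.07 for all genes. Leaving out cluster 10 too made the falls of Mfap4 and Mfap5 smaller and those of Eln and Mfap2 slightly larger, as given under processing.

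Without those cells Eln had 212 CPM after ligation, against 389 CPM in undamaged hearts (ratio 0.544, 0.516 to 0.574). Mfap4 had 345 CPM, against 611 CPM (0.565, 0.542 to 0.588). Both had been higher with the cluster included, as had Mfap2 and Mfap5, which came to 0.895 (0.829 to 0.966) and 0.753 (0.733 to 0.773). Fbn1 had 311 CPM after ligation, against 407 CPM in undamaged hearts (0.763, 0.728 to 0.799). Fbln1 was the one member that stayed above its undamaged level beyond counting error, at 1.14-fold (1.10 to 1.18). Fbn2, with 75 UMIs after ligation, against 57 in undamaged hearts, could not be told from equal (1.09-fold, 0.762 to 1.57).

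Within fibroblasts of no named state, 1823 cells after ligation and 1570 in undamaged hearts, Eln was over 2-fold lower after ligation (219.7 CPM, against 471 CPM in undamaged hearts, ratio 0.467, 0.438 to 0.497). It was the 1 member of 10 past 2-fold there, where 1.79% of genes were higher and 3.46% lower. Sca1-high-like cells, a state led by Ly6c1, Efhd1 and Pi16, gave another order. In them Fbn1 had 430.2 CPM after ligation, against 735 CPM in undamaged hearts (0.585, 0.545 to 0.629), and Fbln2 had 474 CPM, against 778 CPM (0.609, 0.568 to 0.652). Fbln1 had 619.6 CPM after ligation, against 393 CPM (1.57-fold, 1.45 to 1.71), while Mfap4 was at 1.16-fold. That Mfap4 value pooled unlike clusters, with 158 CPM in cluster 2 and 922 CPM in cluster 6 after ligation, against 507 CPM in cluster 2 and 239 CPM in cluster 7 of undamaged hearts. The Fbln1 rise lay in cluster 2 after ligation, at 747 CPM, while cluster 6 had 412 CPM. In undamaged hearts Fbln1 had 401 CPM in cluster 2 and 384 CPM in cluster 7. None of the 9 members with enough UMIs was past 2-fold in that state, where 2.63% of genes were higher and 2.84% lower, and Fbn2 had 4 UMIs after ligation and 3 in undamaged hearts.

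**Figure D2:**
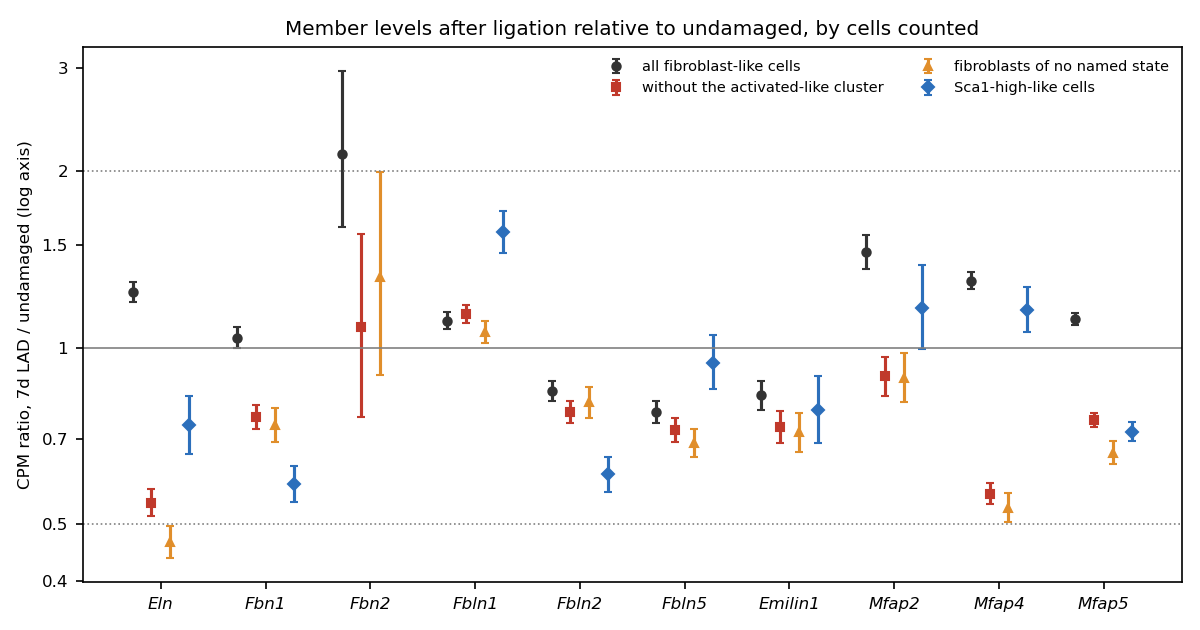
Ratio of member levels after ligation to undamaged (log axis) in all fibroblast-like cells (black), without the activated-like cluster of the ligated library (red), in fibroblasts of no named state (orange) and in Sca1-high-like cells (blue), with 95% Poisson intervals. Dotted lines mark 2-fold; Eln and Mfap4 lie above 1 with all cells and near 0.5 without the activated-like cluster, and Fbn2 is not drawn for Sca1-high-like cells.

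Other markers moved with the condition in fibroblast-like cells. The 9 activated-state markers summed to 2857 CPM after ligation, against 512 CPM in undamaged hearts, and the 7 Wif1-state markers to 155 CPM, against 670.1 CPM, with Wif1 and Chad at 0 after ligation. The 9 fibroblast markers summed to 47354 CPM after ligation, against 85767 CPM, and the 8 cycling markers to 36.4 CPM, against 19.4 CPM. That fibroblast sum rested mostly on its most abundant genes. The highest marker had 17933 CPM after ligation, against 49697 CPM for the highest in undamaged hearts. Dcn had 17781 CPM after ligation, against 26843 CPM. Summed without the highest marker of undamaged hearts and Dcn, the list did not fall. Pericyte, smooth muscle, endothelial and macrophage lists summed to 235, 306, 28.9 and 4.96 CPM after ligation, against 174, 151, 36.3 and 5.72 CPM in undamaged hearts. Their part in the ratios of the members was not tested.

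Activated-like cells held the highest levels of elastin and of most microfibril genes in the ligated tdTomato library, and 3 libraries held cells so named. In the ligated tdTomato library 6 of 10 members were over 2-fold higher in activated-like than in other fibroblast-like cells and 0 were lower, where 8.01% of 11583 genes were higher and 7.14% lower. Mfap4 had 2195 CPM in activated-like cells, against 345 CPM in the others (6.37-fold, 6.12 to 6.62), and Eln had 1330.2 CPM, against 212 CPM (6.28-fold, 5.97 to 6.60). Fbn2 was 5.02-fold higher (3.76 to 6.82), at 34.5 CPM against 6.84 CPM. The microfibril core followed, with Mfap2 at 3.57-fold, Mfap5 at 2.99-fold and Fbn1 at 2.49-fold. Emilin1, Fbln2 and Fbln5 were between 1.30-fold and 1.54-fold. Fbln1 was the one member below the other fibroblasts, with 597 CPM against 668 CPM (0.894, 0.851 to 0.938). The median log2 ratio was 1.45 for the members and -0.01 for all genes.

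In the PDGFRa library, with 2597 activated-like cells, 3 of 10 members were over 2-fold higher (7.98% of 14228 genes) and 0 lower (12.4%). Mfap4 was 3.33-fold higher in activated-like cells, Fbn2 3.31-fold and Mfap2 2.82-fold. Eln had 604 CPM in activated-like cells, against 305 CPM in the others, and Mfap5 2864 CPM, against 1468 CPM, both just under the threshold at 1.98-fold and 1.95-fold. Fbln5, Fbln2 and Fbln1 had ratios of 1.06, 1.01 and 0.914. Activated-like cells were deeper than the other named groups, with a median of 16304 UMIs there and 7874.5 UMIs in the ligated tdTomato library. The part of depth was not tested.

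The citrine library held an activated-like cluster although its 3 hearts were undamaged. Its 1130 cells were led by Postn, Cilp, Ltbp2 and Comp, and they carried 88.9% of the activated markers together with 85.7% of the Wif1 markers. Of the 10 members 2 were over 2-fold higher (4.51% of 14026 genes) and 0 lower (4.61%). Mfap4 had 842 CPM in activated-like cells, against 238 CPM in the others (3.53-fold, 3.45 to 3.62), and Mfap5 had 2767 CPM, against 1328 CPM (2.08-fold, 2.06 to 2.11). Fbln2 was 1.54-fold higher. Mfap2 and Fbn2, both over 2-fold higher in the activated-like cells of the other libraries, had ratios of 0.818 (0.757 to 0.882) and 0.810 (0.462 to 1.24) here, and Fbln1 and Fbln5 had 0.718 and 0.695. Mfap4 was therefore the single member over 2-fold higher in the cells named activated-like in all 3 libraries, a name given by 1 rule and not by equal marker levels.

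Per heart, with at least 20 cells of the state, Mfap4 and Eln had the direction seen in the library totals. Mfap4 was higher in activated-like cells of each of the 3 citrine hearts (2.61-fold to 4.28-fold) and of the 2 PDGFRa hearts with enough such cells (2.27-fold and 2.35-fold). Eln was higher in the same 5 hearts, by 1.21-fold to 1.62-fold in citrine hearts and by 1.49-fold and 1.83-fold in PDGFRa hearts. Mfap2 was 1.99-fold and 2.26-fold higher in those PDGFRa hearts and lower in each citrine heart (0.736 to 0.900).

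**Figure D3:**
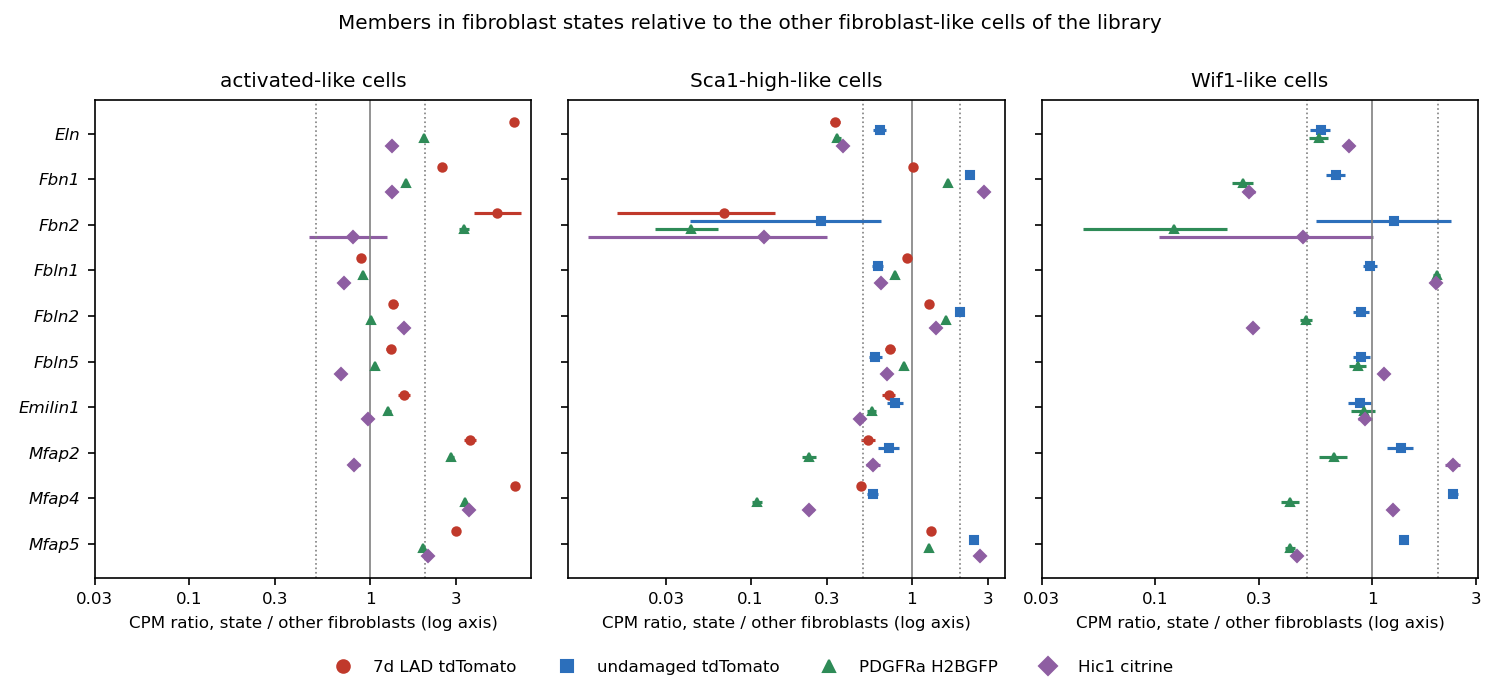
Ratio of member levels in activated-like (left), Sca1-high-like (middle) and Wif1-like cells (right) to the other fibroblast-like cells of the same library (log axis), with 95% Poisson intervals as lines. Eln and Mfap4 lie right of 1 in activated-like cells and left of 1 in Sca1-high-like cells of every library, and Fbln2 and Mfap5 lie right of 1 in Sca1-high-like cells of every library.

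The activated-like cells of the PDGFRa library formed a pair of clusters that divided the set. Cluster 5, of 1223 cells led by Sfrp2 and Cxcl5, was set against cluster 3, of 1374 cells led by Spp1, Thbs4 and Tnc. Eln had 1012 CPM in cluster 5, against 252 CPM in cluster 3 (4.02-fold, 3.91 to 4.14), so cluster 5 was the elastin-high one of the pair. The activated-like name of these cells depended on resolution. At resolution 2 a cluster of 671 cells led by Cxcl5 and Ptx3 carried 11.1% of the activated markers and had no named state. A further 661 cells, led by Wfdc18 and Cthrc1, were named interferon-like with 66.7% of the activated markers. Fbln1 was 2.14-fold, Mfap2 1.98-fold, Mfap4 1.91-fold and Fbn2 1.80-fold higher in cluster 5. Mfap5 went the other way, with 1682 CPM in cluster 5, against 3887 CPM in cluster 3 (ratio 0.433, 0.428 to 0.438). Fbn1, Fbln2 and Emilin1 had ratios of 0.857, 0.825 and 0.771. Cluster 10, of 336 cells that no state marker list named and that were led by Clu, Dmkn and Wt1, was near cluster 5 in Eln (871 CPM), Mfap4 (1258 CPM), Mfap2 (326 CPM) and Fbn2 (81.7 CPM).

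In Sca1-high-like cells, pooled over the clusters of the state, the set had the same signs in all 4 libraries, with elastin, Mfap4, Mfap2, Emilin1, Fbn2, Fbln1 and Fbln5 lower and Fbln2 and Mfap5 higher than in the other fibroblasts. In the ligated tdTomato library the state was 2 clusters that differed in these signs. Cluster 2, of 556 cells, had ratios of 0.918 for Fbln2, 1.02 for Mfap5 and 1.18 for Fbln1, and cluster 6, of 341 cells, had 1.73 for Fbln2, 1.64 for Mfap5, 0.608 for Fbln1 and 1.18 for Mfap4. Counts past 2-fold were 0 higher and 3 lower in the ligated tdTomato library (1.74% and 4.06% of genes), 2 and 1 in the undamaged tdTomato library (2.41% and 4.31%), 0 and 4 in the PDGFRa library (4.51% and 10.7%) and 2 and 4 in the citrine library (3.94% and 7.54%). Mfap4 had 76.8 CPM in Sca1-high-like cells, against 702 CPM in the others, in the PDGFRa library (9.12-fold lower, 8.54 to 9.78), and 81.4 CPM, against 351 CPM, in the citrine library (4.31-fold lower). Eln was 2.99-fold lower in the ligated tdTomato, 1.57-fold lower in the undamaged tdTomato, 2.89-fold lower in the PDGFRa and 2.67-fold lower in the citrine library. The pooled PDGFRa values mixed unlike hearts. Within hashtags 1 to 4 the Mfap4 ratio was 0.151, 0.132, 0.283 and 0.188, each less extreme than the pooled one. For Eln the ratios were 0.298, 0.262, 0.655 and 0.713.

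Fbn1 was the member whose place in this state varied by library. It had 735 CPM in Sca1-high-like cells, against 320.1 CPM in the others, in undamaged tdTomato hearts (2.30-fold, 2.15 to 2.45), and 1552 CPM, against 551 CPM, in the citrine library (2.81-fold). In the PDGFRa library it was 1.68-fold higher. In the ligated tdTomato library it had 430.2 CPM in Sca1-high-like cells, against 421 CPM in the others, which could not be told from equal (1.02-fold, 0.966 to 1.08). With 1 library per condition the difference between these ratios was not tested. Mfap5 was 1.32-fold, 2.46-fold, 1.28-fold and 2.65-fold higher in the ligated tdTomato, undamaged tdTomato, PDGFRa and citrine libraries. In each of the 7 hashed hearts Fbn1, Fbln2 and Mfap5 were higher in Sca1-high-like cells and the other 7 members lower. Of the lower ones, Fbn2 had at most 9 UMIs of the state in any heart and 0 in citrine hashtags 1 and 2. Fbln5 was close to level in PDGFRa hashtag 4, with 306 CPM against 310 CPM. Across those hearts the Fbn1 ratio ran between 1.74 and 3.63 and the Mfap4 ratio between 0.132 and 0.283.

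Wif1-like cells, named from markers such as Wif1 and Comp, shared fewer features between libraries. Counts past 2-fold were 1 higher and 0 lower in undamaged tdTomato (4.81% and 4.32% of genes), 0 and 5 in PDGFRa (15.4% and 5.03%) and 1 and 4 in citrine (8.33% and 4.6%). Fbn1 was lower in each, with ratios of 0.679 (0.613 to 0.748), 0.253 (0.226 to 0.281) and 0.271 (0.254 to 0.288). Fbln1 was 1.97-fold higher in PDGFRa and 1.95-fold higher in citrine Wif1-like cells, and level with the others in undamaged tdTomato (0.978, 0.908 to 1.05). Mfap4 was 2.34-fold higher in the undamaged tdTomato library (1166 CPM in Wif1-like cells, against 498 CPM in the others), 1.24-fold higher in citrine and 2.39-fold lower in the pooled PDGFRa library. The pooled PDGFRa values did not hold within hearts for 3 genes. Wif1-like cells were 0.520%, 0.715%, 7.36% and 5.85% of the fibroblast-like cells in hashtags 1 to 4, and hashtag 1 had too few for a value. Mfap4 had ratios of 0.510, 1.31 and 1.41 in hashtags 2, 3 and 4, so it was higher in Wif1-like cells of 2 of 3 hearts. Mfap2 had 0.571, 2.73 and 1.87, against 0.666 pooled, and Fbn2 had 0.432, 0.964 and 0.832 on 2 or 3 UMIs, against 0.122 pooled. Fbn1 and Fbln1 kept their direction in each of the 3 PDGFRa and 3 citrine hearts, with ratios of 0.205 to 0.424 for Fbn1 and 1.93 to 2.57 for Fbln1.

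Part of that spread lay between clusters. In the undamaged tdTomato library 2 clusters were Wif1-like, and cluster 10 of 142 cells also carried 66.7% of the activated markers. It had 1593 CPM of Mfap4 and 3006 CPM of Mfap5, the highest of the 9 fibroblast-like clusters of that library. Cluster 3, of 245 cells led by Wif1, had the lowest Eln (174 CPM), Fbn1 (122 CPM) and Fbln2 (132 CPM) of those clusters and the highest Mfap2 (257 CPM). Across fibroblast-like clusters Mfap4 ranged most among the members with counts in every cluster of the tdTomato libraries after ligation, from 147 to 2195 CPM over 6 clusters. Fbln5 ranged least in 3 of the 4 libraries, from 262 to 406 CPM after ligation, from 242 to 475 CPM in the PDGFRa library and from 328 to 575 CPM in the citrine library, and Emilin1 ranged least in undamaged tdTomato, from 130 to 294 CPM.

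**Figure D4:**
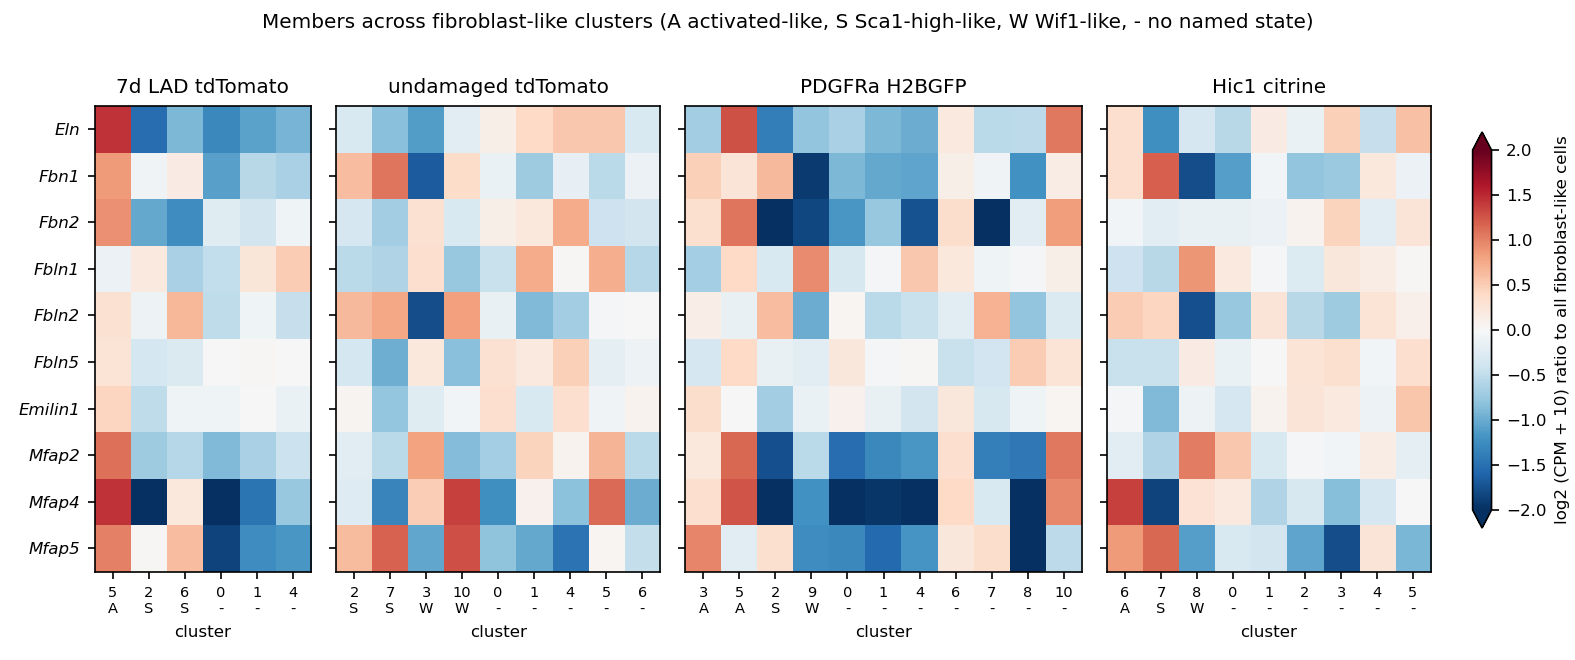
Level of each member (rows) in each fibroblast-like cluster (columns) of the 4 libraries, as the log2 ratio of CPM + 10 to that of all fibroblast-like cells of the library (colour, cut off at 2 either way). Columns marked A are activated-like, S Sca1-high-like, W Wif1-like and - of no named state; Eln, Mfap2 and Mfap4 are darkest red in the activated-like column of the ligated library and in columns 5 and 10 of the PDGFRa library.

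Across the 35 fibroblast-like clusters of at least 50 cells, centred within library, the members fell along a pair of patterns. Fbn1 went with Fbln2 (Pearson r 0.85) and Mfap5 (0.80), and Mfap2 with Mfap4 (0.76). Among the members that reached the level set for this comparison Eln was most like Mfap4 (0.66), while Fbln5 and Mfap5 ran opposite (-0.73), as did Fbln1 and Fbln2 (-0.67) and Fbn1 and Fbln1 (-0.61). Clusters of 1 library share that library and its depth, so these values describe the data and carry no p. Among 5686 genes, those most like Eln included 4931406P16Rik (0.87) and Sfrp2 (0.83), a secreted Wnt modulator. Those most like Fbn1 were Dbn1 (0.91), Fstl1 (0.90) and S100a11 (0.89), and Dbn1 was also first for Fbln2 (0.88), ahead of Myadm and Adam9. Mfap2 was most like Mdk (0.91), the growth factor midkine, then Tcea3 and Ncam1. For Mfap4 the list was Actn1 (0.91), Tmem119 (0.91) and Rasl11b (0.90), and for Mfap5 Anxa2 (0.94), Nbl1 (0.93) and Aig1 (0.92). Fbln1 was most like Srpx (0.91), Fgl2 and the complement gene C4b, Fbln5 most like Thbs2 (0.81), Ogn and Rgs3, and Emilin1 most like the collagen VI gene Col6a3 (0.87), Sept11 and Rgs3. Fbn2 did not reach that level, and the genes that came out most like it were Wbp5, Ptn and Phldb2.

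Per hashed heart, the 3 undamaged citrine hearts gave the spread between animals. Fbln5 had 454, 469 and 459.5 CPM in the citrine hearts with hashtags 1, 2 and 3 (461 ± 7.31, SD, n = 3), and Emilin1 had 138, 147 and 139 CPM (141 ± 5.33). These were the steadiest members. Eln had 249.8, 243 and 279 CPM (257 ± 19.1), Mfap4 had 295, 306 and 401 CPM (334 ± 58.2) and Fbn1 had 579.8, 612 and 795 CPM (662 ± 116). Hashtag 3 held the highest value of all 3 of those genes. Mfap5 averaged 1559.5 ± 253 CPM, Fbln2 1309.8 ± 149 CPM, Fbln1 1001 ± 123 CPM and Mfap2 75.6 ± 7.69 CPM (SD, n = 3 each), and Fbn2 was near the limit of counting at 2.21 ± 1.03 CPM.

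In the PDGFRa library, where 9478 of 12567 cells took 1 hashtag, Eln had 466, 551, 205 and 258 CPM in the hearts with hashtags 1 to 4. Mfap4 had 836, 896, 193 and 162 CPM (304 CPM for hashtag 3 where the top hashtag had to be 10 times the second), Mfap2 had 205, 193, 52.7 and 54.2 CPM, and Fbn2 had 59.4, 54.6, 6.22 and 8.81 CPM. For all 4 genes the highest and lowest hearts lay farther apart than in the citrine library: 2.69-fold for Eln, 5.54-fold for Mfap4, 3.89-fold for Mfap2 and 9.55-fold for Fbn2, against 1.15-fold, 1.36-fold, 1.20-fold and 2.28-fold between the 3 citrine hearts. Fbn1 had 806, 874, 593 and 469.6 CPM, Mfap5 had 2279, 2156, 1325 and 1360.2 CPM, and Emilin1 had 168, 146, 128 and 121 CPM. Both Fbn1 and Mfap5 varied less than 2-fold between the 4 hearts. Fbln1, Fbln2 and Fbln5 differed by at most 1.24-fold, with 761, 673, 689 and 687 CPM for Fbln1. The activated-like share of the fibroblast-like cells moved with the high members, at 35.6%, 35.9%, 0.0836% and 0.0568% in hashtags 1 to 4, as did median depth, at 10039, 10634, 6627.5 and 6701.5 UMIs. Their part was not tested.

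**Figure D5:**
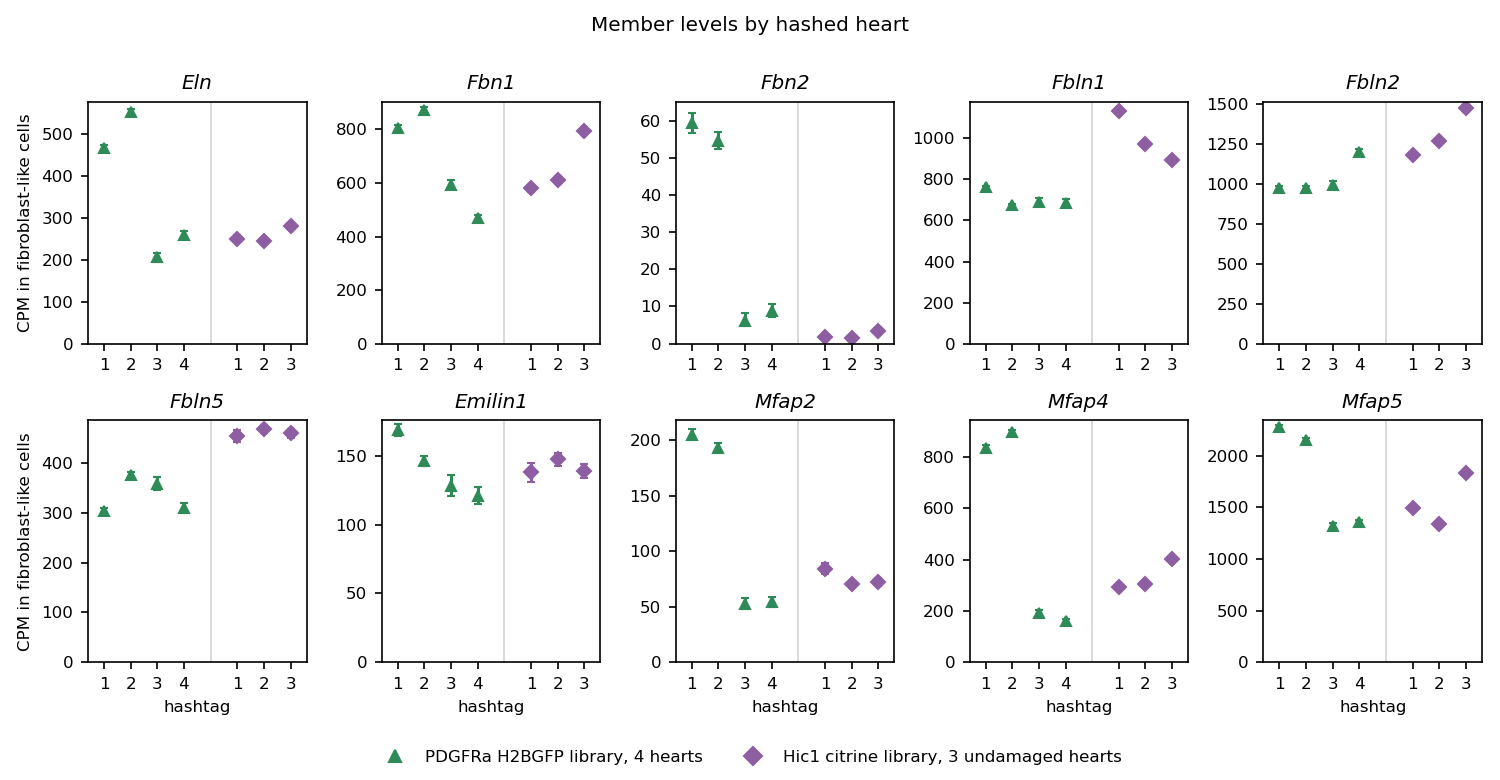
Level of each member (CPM, from 0) in fibroblast-like cells of each hashed heart, for the 4 hearts of the PDGFRa library (green triangles) and the 3 undamaged hearts of the citrine library (purple diamonds), with 95% Poisson intervals. Condition is not drawn for the PDGFRa hearts; Eln, Fbn2, Mfap2 and Mfap4 are higher for hashtags 1 and 2, while Fbln1 and Fbln5 lie close together.

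The partners of the set were read from 4 lists of 54 genes in all, in fibroblast-like cells after ligation and in undamaged hearts. Of the fibulin, EMILIN and microfibril partners 3 of 19 were over 2-fold higher and 2 lower (2.96% and 4.02% of all genes in this comparison, also for the lists that follow), with a median log2 ratio of -0.37. The highest was Fn1, fibronectin, on which fibrillin assembly depends, with 546 CPM after ligation, against 78.8 CPM in undamaged hearts (6.93-fold, 6.42 to 7.50). Ltbp2, a latent TGF-beta binding protein that binds fibrillin, had 69.3 CPM, against 25.9 CPM (2.67-fold, 2.32 to 3.10). Adamts17, Mmrn2 and Thsd4 passed 2-fold on 34, 38 and 33 UMIs over both libraries, with Adamts17 higher and the others lower. Of the 5 lysyl oxidases, the cross-linking enzymes, 1 was over 2-fold higher: Lox had 124 CPM after ligation, against 20.7 CPM (5.97-fold, 5.16 to 7.01), and the lowest was Loxl4 at 0.835.

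Of the elastin-degrading proteases and their inhibitors 2 of 11 were over 2-fold higher and 0 lower. Both were inhibitors, Timp1 with 455 CPM after ligation, against 137 CPM in undamaged hearts (3.32-fold, 3.12 to 3.53), and Serpina3n with 165 CPM, against 52.8 CPM (3.13-fold, 2.84 to 3.46). The lowest was another inhibitor, Timp3, at 0.538 (0.521 to 0.555). Mmp9 and Mmp12, known as elastases of inflammatory cells, had 0 UMIs in both libraries. Of the growth factors held on microfibrils and the elastin receptors 1 of 12 was lower and 0 higher: Bmp4 had 36.5 CPM after ligation, against 98.02 CPM (0.372, 0.333 to 0.415), and the highest was Tgfb3 at 1.46-fold. The lists' medians were 0.37 for the lysyl oxidases, -0.07 for the proteases and inhibitors and 0.01 for the growth factors and receptors, beside -0.06 for all genes.

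The same partners were high in activated-like cells. In the ligated tdTomato library Fn1 was 29.6-fold, Ltbp2 19.7-fold, Lox 14.5-fold, Timp1 11.7-fold, Tgfb3 5.44-fold, Tgfb1 4.41-fold and Loxl3 3.99-fold higher in activated-like than in other fibroblast-like cells. Lower were Efemp1, the gene of fibulin-3, with 5.66 CPM in activated-like cells, against 115 CPM in the others, and Emilin2 with 2.55 CPM, against 17.6 CPM. Bmp2, Bmp4, Ltbp1 and Dcn were also lower, at 0.310, 0.359, 0.403 and 0.438. In the PDGFRa library Timp1 was 7.95-fold, Fn1 7.86-fold, Ltbp2 6.31-fold and Lox 5.62-fold higher. Of its microfibril partners 4 of 19 were over 2-fold higher and 5 lower (7.98% and 12.4% of all genes), the lower ones being Emilin2 (0.0586), Efemp1 (0.0799), Ltbp1 (0.324), Dcn (0.390) and Ltbp4 (0.393). Bmp4 (0.167), Bmp2 (0.234) and Timp4 (0.417) were lower in the other lists. In citrine activated-like cells Ltbp2 was 12.1-fold and Timp1 3.23-fold higher, with no lysyl oxidase past 2-fold, while Efemp1 (0.286), Fbln7 (0.460) and Timp4 (0.322) were lower and Ctss had 0 UMIs in the state. Efemp1 and Emilin2, over 2-fold lower in activated-like cells of the ligated tdTomato and PDGFRa libraries, were high in Sca1-high-like cells: Efemp1 was 2.24-fold, 2.103-fold, 4.44-fold and 2.68-fold higher, and Emilin2 3.62-fold, 7.09-fold, 8.28-fold and 4.15-fold higher, in the ligated tdTomato, undamaged tdTomato, PDGFRa and citrine libraries.

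In mural cells the comparison of ligated with undamaged hearts rested on few UMIs. Of 9 members with enough UMIs in pericyte-like cells 4 were over 2-fold higher and 0 lower, where 5.19% of 9043 genes were higher and 8.76% lower. Mfap2 rested on the most counts, with 353 UMIs (143 CPM) after ligation, against 16 UMIs (52.2 CPM) in undamaged hearts (2.59-fold, 1.66 to 4.85). Mfap5 was 2.90-fold (1.57 to 8.32), Fbln2 2.80-fold (1.22 to 18.2) and Mfap4 2.22-fold (1.09 to 8.28) higher, on 7, 3 and 5 UMIs in undamaged hearts. With 5 UMIs added to each sum in place of 1, 1 of the members was past 2-fold. These 3 genes were at or below the fibroblast-marker ratio of pericyte-like cells in both libraries. That ratio was 0.156 after ligation, against 0.0760 in undamaged hearts. In pericyte-like cells the markers summed to 7388 CPM after ligation, against 6520 CPM in undamaged hearts. In fibroblast-like cells they summed to 47354 CPM, against 85767 CPM, so the ratio changed mainly through the fibroblast-like cells. That fibroblast-like sum rested mostly on a few abundant markers, as given above. The part of fibroblast RNA in these calls was not tested. Fbn1, Eln and Emilin1 had ratios of 0.953 (0.744 to 1.27), 0.787 (0.536 to 1.28) and 1.15 (0.868 to 1.61). In smooth-muscle-like cells 2 of 6 members were over 2-fold higher (4.84% of 6545 genes) and 0 lower (4.98%): Mfap2 with 24 UMIs after ligation, against 2 in undamaged hearts (3.36-fold, 1.20 to 42.3), and Mfap4 with 25 UMIs, against 3 (2.62-fold, 1.03 to 17.4). Both calls were lost with 5 UMIs added to each sum, and Mfap4 was at or below the fibroblast-marker ratio in these cells. There Eln had 68.8 CPM after ligation, against 37.6 CPM in undamaged hearts (1.74-fold, 1.03 to 3.44).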

How the data were processed

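Single cells were sequenced by droplet from 4 sorted-cell libraries, with the 10x 3' v2 kit per the labels. The deposited files hold raw UMI counts per gene and cell barcode, aligned by the authors to a modified mm10 per the labels' protocols, with Cell Ranger 3.0.2 named per the file headers of the hashed libraries. Seurat 2.1 is named in the submitters' processing notes. All 4 libraries were analysed from these counts, and 0 columns were left unmapped. The libraries held 4292 (ligated), 2853 (undamaged), 13830 (PDGFRa) and 11338 (citrine) barcodes and 18028737, 9885698, 122716283 and 97467582 UMIs.

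Kept barcodes had 500 or more genes, 1000 or more UMIs and a mitochondrial share of 10% or less. Counts were scaled to 10000 per cell, and 2000 variable genes, without the members and their partner lists except Dcn, gave 30 principal components, 20 neighbours and Leiden clusters at resolution 1 (Python 3.11.15 with scanpy 1.11.5, numpy 2.4.6, scikit-learn 1.9.0, leidenalg 0.10.2, pandas 2.3.3, python-igraph 0.11.9, matplotlib 3.10.9 and scipy 1.17.1). A cluster took a class when 3 or more of its markers were each detected in 25% or more of the cells; a state needed at least 60% of its markers over 2-fold above the rest of the library. Scrublet marked 4, 2, 1 and 0 cells, so doublets were in effect not removed. A hashtag was called from at least 10 UMIs and 3 times the second hashtag. Ratios compare summed counts with 1 UMI added to each sum, for genes with at least 20 UMIs over both; their intervals are those of the counts without it. Shares were thinned to 2000 UMIs. UMIs mark molecules, and all intervals and limits of 3 counts cover counting error only. With 1 library a group no test was made. The calculation was tested on simulated data. The 10 members are described in full; other genes are those of the partner lists past 2-fold, the extremes of each list and the 3 genes most like each member, of which 1 is not reported here. The members and lists were chosen with earlier results of these data known.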

Additional observations from a re-analysis of the deposited data

Results flagged for a closer look

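Fbln2 lay on opposite sides of its undamaged level in fibroblast-like and pericyte-like cells. Its log2 ratio of ligated to undamaged tdTomato hearts was -0.24 in fibroblast-like cells and 1.48 in pericyte-like cells. The difference was not tested, since each condition is 1 library. The pericyte-like value rests on 89 UMIs after ligation, against 3 UMIs in undamaged hearts. The summed fibroblast markers of pericyte-like cells were 15.6% of their fibroblast-like level after ligation, against 7.602% in undamaged hearts. In CPM they were 7388 after ligation, against 6520 in undamaged hearts, while the fibroblast-like level was 47354, against 85767. Their part was not tested.

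The citrine library was labelled with hashtags 1 to 3, and hashtag 4 had 2606 UMIs in it, 0.520% of its hashtag UMIs. No cell was called for hashtag 4, so no value per heart rests on it.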

How the results depend on the processing

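No paired analysis was possible because each tdTomato condition is 1 library and no test was made. Of 10 members 1 was over 2-fold higher in fibroblast-like cells after ligation. That count was 0 with a mean over cells, without the activated-like cluster, with all kept cells, and, chosen after seeing the data, without clusters holding 60% of the activated markers in either library. The members' median log2 ratio of 0.16 was -0.14, -0.40, -0.018 and -0.31 under those settings. The count of 9 partner genes past 2-fold was 4 without the activated-like cluster and 3 without the 60% clusters. Signs turned for Eln (-0.22 with a mean over cells, -0.88 without the activated-like cluster, -0.89 without the 60% clusters), Mfap4 (-0.14, -0.82 and -0.64), Mfap5 (-0.084, -0.41 and -0.24, and -0.022 with all kept cells), Mfap2 (-0.16 without the activated-like cluster and -0.21 without the 60% clusters), Fbn1 (-0.14, -0.39 and -0.36, and -0.045 with all kept cells) and Fbln1 (-0.014 with all kept cells). By construction the settings without clusters use fewer cells; the cause of the others was not tested. The 4 pericyte-like members past 2-fold came to 1 with a pseudocount of 5, and the 2 smooth-muscle-like ones to 0 with a pseudocount of 5 and 1 with at most 5% mitochondrial UMIs. The 2 Wif1-like calls over all libraries came to 1 at Leiden resolution 0.5. In the PDGFRa library 2597 cells were activated-like at resolution 1, 557 at resolution 2 and 3323 at resolution 0.5. In citrine hearts the median over members of the highest to the lowest heart was 1.26, and 1.07 to 1.23 with each heart left out. With a 10-fold hashtag rule Mfap4 of PDGFRa hashtag 3 was 304 CPM, 1.58 times the value given. Counts are low for Fbn2 and in mural cells, where intervals are wide.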

Other observations

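The labels do not tie the condition of the 4 PDGFRa hearts to a hashtag. These hearts fell apart in the same genes when the clusters named activated-like were left out. Eln then had 371, 384, 206 and 259 CPM for hashtags 1 to 4. Mfap4 had 504, 525, 191 and 162 CPM, Mfap2 had 124, 127, 52.6 and 54.3 CPM, and Fbn2 had 38.2, 33.9, 6.24 and 8.82 CPM. Hashtags 1 and 2 lay above hashtags 3 and 4 for each of these genes, which were the members with the widest spread between the PDGFRa hearts. Fbn1, with 648, 753, 593 and 470 CPM, and Mfap5, with 1596, 1645, 1306 and 1357 CPM, lay the same way. So did Emilin1, with 154, 133, 128 and 121 CPM, and Fbln1, with 786, 710, 690 and 687 CPM. Fbln2 was lower for hashtags 1 and 2, with 918, 927, 994 and 1201 CPM. Fbln5 did not part the hearts, with 302, 349, 359 and 309 CPM. How many of all genes part the hearts in this way was not counted. Postn, an activated marker, had 1100.0, 1395, 201 and 255 CPM in the same cells, and its part was not tested. The cells left still differed in makeup between hearts. Cluster 10 was near the elastin-high activated-like cluster in Eln, Mfap4, Mfap2 and Fbn2. It drew 28.8%, 70.1%, 0.347% and 0.694% of its hashtagged cells from hashtags 1 to 4. For cluster 6 the shares were 48.9%, 48.8%, 1.03% and 1.25%. Cluster 0 leaned the other way, with 16.2%, 17.2%, 23.4% and 43.2%. The part of this makeup in the levels was not tested.

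In Sca1-high-like cells Eln no longer separated the hearts, with 144, 151, 143 and 193 CPM for hashtags 1 to 4. Mfap4 still did, with 132, 124, 62.4 and 34.4 CPM, as did Mfap5, with 3091, 2913, 2358 and 2327 CPM. Fbn1 did too, with 1353, 1540, 1305 and 940 CPM. Mfap2, with 31.2, 45.1, 35.5 and 35.0 CPM, and Fbn2, with 0.601, 3.65, 1.31 and 1.54 CPM, did not. Neither did Fbln2, with 1701, 1599, 1519.6 and 1637 CPM, nor Fbln1, with 572, 525, 512 and 576 CPM. Emilin1, with 73.3, 80.8, 93.9 and 86.4 CPM, was lower for hashtags 1 and 2 than for 3 and 4. Fbln5 was so too, with 288, 292, 321 and 306 CPM. The share of all genes that separated the hearts in Sca1-high-like cells was not counted either.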
